A study of Mus musculus with 6 samples.

Results

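The genes described here handle iron and heme in macrophages, and they were chosen by name: *Hmox1*, *Blvra*, *Blvrb*, *Fth1*, *Ftl1*, *Slc40a1*, *Tfrc*, *Slc11a1*, *Slc11a2* and *Hamp*. A probe was taken when the gene name printed for it in the scanner files equaled one of these symbols. All 10 genes were found, and they were carried by 16 of the 55681 probes on the array, which stood for 34844 gene names. The list was drawn up with earlier results of these arrays known, so the calls given for its members describe them and stand as no independent evidence.

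Bone marrow–derived macrophages (BMDMs) were grown for 7 days in medium conditioned by L929 cells from the marrow of female C57BL/6 mice, 6 to 8 weeks old in the labels and older in the paper. Untreated BMDMs, BMDMs given LPS for 4 h, and BMDMs given 10 μM HBX41,108 for 30 min before LPS for 4 h (LPS+USP7i) were compared. LPS comes from the outer membrane of Gram-negative bacteria and is sensed through TLR4, and HBX41,108 is a small molecule inhibitor of the deubiquitinase USP7. The series description and the paper give LPS at 100 ng/ml, whereas the sample labels print 100 ng/μl. Each group held 2 arrays, whose RNA came from independent experiments according to the series description. No array of HBX41,108 without LPS was analyzed here, and whether the LPS group was given the solvent of the inhibitor is not stated in the sources used here.

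Macrophages clear aged red blood cells, break down their heme and return the iron to the circulation. Heme oxygenase-1, the product of *Hmox1*, opens the heme ring and releases iron, carbon monoxide and biliverdin, which biliverdin reductases turn into bilirubin. The freed iron is either held in ferritin or leaves the cell through ferroportin, the product of *Slc40a1*, and hepcidin, the product of *Hamp*, binds ferroportin and causes its degradation. Inflammation is known for lowering ferroportin and keeping iron inside macrophages.

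Depth on an array is the signal over background. Of 59305 spots that were not controls, 25002 to 27467 per array were well above background, and 0 were saturated. All 8 macrophage markers (*Csf1r*, *Adgre1* and others) were well above background on every array. Their summed linear signal was 721266 to 729329 on the untreated arrays, 723673 to 748579 on the LPS arrays and 587336 to 628259 on the LPS+USP7i arrays. Of 6 red cell markers found, 1 (*Ermap*) was above background on all 6 arrays, *Hbb-b1* and *Alas2* were above it on none, *Epor* on both untreated arrays, and *Hba-a1* and *Klf1* on 1 untreated array each. The summed signal of the red cell list was 237 to 276, 345 to 386 and 334 to 446 in the same order of groups. Of 8 neutrophil markers 6 were above background on all arrays, with sums of 5247 to 6960, 5870 to 11805 and 6205 to 9795. In each group *S100a8*, *S100a9*, *Camp*, *Ngp*, *Ltf* and *Elane* read higher on replicate 2, and *Ly6g* and *Mpo* on replicate 1. *S100a9* read 7.68 and 10.72 (log2), then 9.54 and 12.38, and 8.35 and 11.57 in the same order. *Camp* read 4.91 and 6.05, then 6.68 and 8.40, and 4.95 and 6.70. Of 6 T cell markers 3 were above background on all arrays and 2 on none, with sums of 2108 to 2285, 4270 to 4420 and 2188 to 2700. Of those 3, *Lck* read 6.87 and 6.91 (log2) on the untreated arrays and 10.94 and 11.30 on the LPS arrays, whereas *Cd3e* read 9.35 and 9.08 against 9.35 and 9.13, and *Cd4* 10.55 and 10.46 against 10.68 and 10.35. B cell markers gave 2 of 5 on all arrays (sums of 668 to 1057, 533 to 1153 and 315 to 715), dendritic cell markers 1 of 4 (38053 to 45042, 24853 to 25331 and 34656 to 51407, nearly all from *Siglech*), and fibroblast markers 0 of 5, with 3 on no array (60.1 to 63.7, 79.6 to 110 and 64.8 to 92.3). The part of these cells in the results was not tested, and in bulk RNA fewer cells of a type and less RNA per cell cannot be told apart.

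The probes that carry the main results are shown as 30 of their 60 bases, as the scanner files print them, so that it is clear which stretch of each message was read. Capitals mark AATAAA, the hexamer that directs polyadenylation and lies near the 3′ end of most messages. It was searched on the printed strand alone and stood in 4 of the 16 probes, from 4 genes, against 10.1% of all probes. The others are shown from their first base.
*Hmox1* probe A_51_P263965: atggttgtaagcatccatgttgactgacca
*Hmox1* probe A_55_P2029687: atagagcgcaacaagcagaacccagtctat
*Slc40a1* probe A_51_P389988: cctttcaatatccctgagaagAATAAAgaa
*Hamp* probe A_52_P669922: ttctgctgtaaatgctgtaacaattcccag
*Ftl1* probe A_55_P1968245: ggaccaagtaaaAATAAAgctttttgagac
*Ftl1* probe A_55_P1983959: gcagaacgatctcgggggctgtgcactctt
Both *Ftl1* probes are shown because they gave different calls. Only A_55_P1968245 of the pair held the hexamer.

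All values below are log2 signals after quantile normalization, and each difference carries the standard error (SE) of a limma fit to all 6 arrays. A probe was called when its Benjamini-Hochberg adjusted p over 55680 probes was under 0.05, and a gene was counted by its brightest probe. With 2 arrays against 2, an exact permutation test of a single gene cannot go below p = 0.333, so the calls rest on the spread that the fit shares over groups and probes. Signals of different probes are not comparable as levels.

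*Hmox1* and *Slc40a1*, the enzyme that frees heme iron and the transporter that exports it, were the members with the largest differences between LPS+USP7i and LPS, both higher with the inhibitor. LPS alone lowered *Slc40a1*, and *Hmox1* was not called with LPS alone. *Hamp* was the sole member called higher with LPS and the sole member called lower with LPS+USP7i relative to LPS, at a dim signal. *Fth1*, the ferritin heavy chain, and *Tfrc*, the transferrin receptor, passed the test in no comparison.

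**Figure D1:**
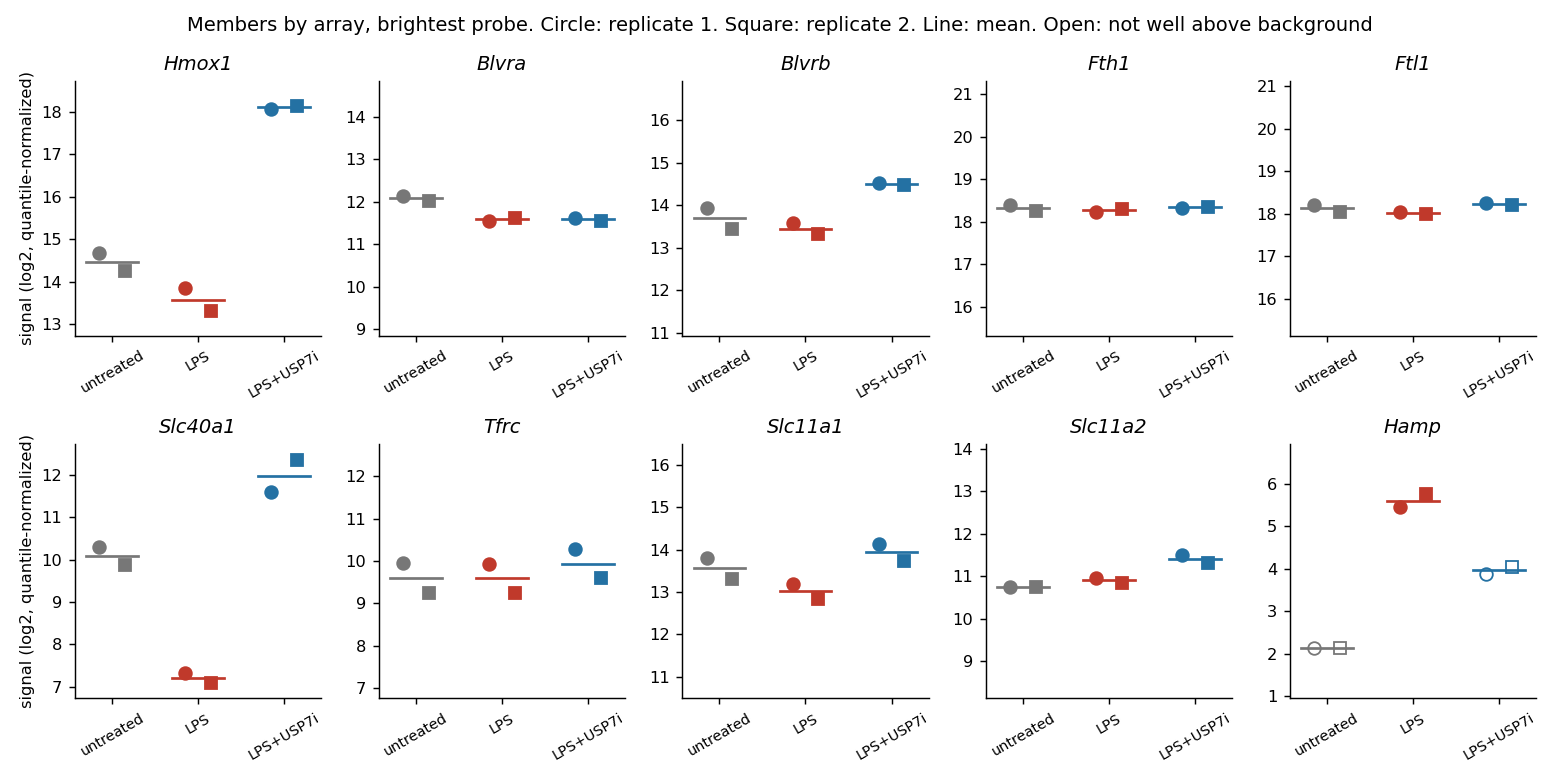
Log2 signal of the brightest probe of each of the 10 genes on the 6 arrays, 2 per group (untreated, LPS, LPS+USP7i), 1 panel per gene with its own axis. Points are single arrays, and *Hmox1* and *Slc40a1* reach their highest values on the LPS+USP7i arrays, *Slc40a1* and *Hamp* split by LPS, and *Fth1* stays within 18.24 to 18.39.

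*Hmox1* was read by 2 probes. The brighter one (A_51_P263965, mm9 chr8:77624207-77624266, plus strand) read 14.67 and 14.24 on the untreated arrays, 13.85 and 13.30 on the LPS arrays, and 18.06 and 18.15 on the LPS+USP7i arrays. Both inhibitor arrays lay above all others, and the untreated and LPS arrays did not overlap either. LPS+USP7i exceeded LPS by 4.53 (SE 0.25, 95% interval 3.83 to 5.23), which is 23.1-fold, with an adjusted p of 0.0113 by limma. The replicate differences were 4.21 and 4.85. Against untreated cells the difference was 3.65, or 12.6-fold (limma adjusted p = 0.0074), and LPS against untreated gave -0.88 (SE 0.25, adjusted p = 0.106). The latter was called lower at 2 of 15 alternative settings, with normexp (adjusted p = 0.0381) and without dim probes (0.0348).

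The second *Hmox1* probe (A_55_P2029687, chr8:77620797-77620856) moved the same way. Its values were 11.44 and 10.96 on the untreated arrays, 11.27 and 10.49 on the LPS arrays, and 16.06 and 15.75 on the LPS+USP7i arrays. The untreated and LPS arrays overlapped, and both inhibitor arrays were above them. The difference between LPS+USP7i and LPS was 5.02 (SE 0.35, 32.5-fold, limma adjusted p = 0.0134), that between LPS+USP7i and untreated 4.71 (26.1-fold, adjusted p = 0.0080), and that between LPS and untreated -0.32 (adjusted p = 0.661). The call of the brighter probe against untreated cells held under all 15 alternative settings, and that of the second probe was lost without untreated replicate 2 (adjusted p = 0.0523). Against LPS the calls of both probes were lost, at adjusted p values of 0.0561 and 0.0572, when the untreated arrays were left out of the fit or when either of them was, and the differences of 4.53 and 5.02 themselves did not change. At those settings no gene of 34844 was called in this comparison, whereas 8014 had an unadjusted p under 0.05.

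*Blvra* and *Blvrb* encode the reductases that convert biliverdin to bilirubin. *Blvra* (A_51_P363103, chr2:126922489-126922548) read 12.13 and 12.02 on the untreated arrays, 11.56 and 11.61 on the LPS arrays, and 11.62 and 11.56 on the LPS+USP7i arrays. It was lower with LPS on both arrays, and the LPS and inhibitor arrays overlapped. LPS lowered it by 0.49 (SE 0.071, limma adjusted p = 0.0204), and LPS+USP7i against untreated differed by -0.49 (adjusted p = 0.0263). Between LPS+USP7i and LPS the 95% interval of the difference was -0.20 to 0.20. The second probe, A_55_P2001714, gave -0.44 for LPS against untreated (adjusted p = 0.0407) and -0.32 for LPS+USP7i against untreated (adjusted p = 0.106). When the 75th percentile replaced quantile normalization, the median of all genes between LPS and untreated cells moved to 0.40 and the *Blvra* difference to -0.18 (adjusted p = 0.183). The *Blvra* call for LPS was also lost in the deposited table (adjusted p = 0.133) and without any one of the untreated or LPS arrays. Its call for LPS+USP7i against untreated was lost at 9 of 15 settings, among them the deposited table, 75th percentile scaling and each array left out.

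*Blvrb* had 1 probe (A_55_P1991585, chr7:28250944-28251000), with values of 13.94 and 13.44 on the untreated arrays, 13.57 and 13.32 on the LPS arrays, and 14.52 and 14.48 on the LPS+USP7i arrays. Both inhibitor arrays were the highest, and untreated and LPS arrays overlapped. LPS+USP7i minus LPS was 1.06 (SE 0.20, 95% interval 0.49 to 1.62), which did not pass at an adjusted p of 0.0621 by limma. It did pass in 4 of 15 alternative settings, and the adjusted p ranged from 0.0083 to 0.196 over them.

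*Slc40a1* encodes ferroportin, the only iron exporter known in mammals. Its probe (A_51_P389988, chr1:45965255-45965314, minus strand) read 10.30 and 9.86 on the untreated arrays, 7.33 and 7.10 on the LPS arrays, and 11.59 and 12.36 on the LPS+USP7i arrays. The 3 groups were fully apart, with LPS lowest and LPS+USP7i highest. LPS lowered it by 2.87 (SE 0.33, limma adjusted p = 0.0117), which is 7.30-fold. LPS+USP7i exceeded LPS by 4.76 (SE 0.33, adjusted p = 0.0133), or 27.1-fold, with replicate differences of 4.26 and 5.26. Against untreated cells LPS+USP7i was higher by 1.89 (SE 0.33, adjusted p = 0.0378), or 3.71-fold, with replicate differences of 1.29 and 2.49.

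The directions of *Slc40a1* held under all 15 alternatives in each comparison, and its calls did not. The call between LPS+USP7i and LPS was lost when the untreated arrays, or either one, were left out (adjusted p = 0.0572) and without LPS replicate 2 (0.0521). Its call between LPS and untreated cells was lost without untreated replicate 1 (0.0628) or 2 (0.0547) and without LPS replicate 1 (0.0588) or 2 (0.0613). The call of LPS+USP7i against untreated cells was lost at 7 of 15 settings. These were the 2 groups alone (limma adjusted p = 0.0936), replicate number as a block, and each array left out except LPS+USP7i replicate 1.

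*Hamp* encodes hepcidin, a hormone made mainly in liver. Its probe (A_52_P669922, chr7:31727490-31727549, minus strand) read 2.14 and 2.14 on the untreated arrays, 5.45 and 5.75 on the LPS arrays, and 3.88 and 4.05 on the LPS+USP7i arrays. It was well above background on the 2 LPS arrays and on no other array, so the untreated and inhibitor levels have only a bound. Mice carry a near-identical copy, *Hamp2*, and whether the *Hamp* probe also reads it was not tested. The separate *Hamp2* probe was above background on no array and read 2.95 and 2.18 on the LPS arrays, against 3.25 and 2.65 on the untreated ones. The bound used here replaces the dim group by the lowest quantile-normalized signal that was well above background on its arrays. On that scale *Hamp* was at least 3.23-fold higher with LPS than in untreated cells. It was at least 2.50-fold lower with LPS+USP7i than with LPS. The limma fit did not use the bound. Its fitted differences were 3.46 (limma adjusted p = 0.0028) and -1.64 (adjusted p = 0.0151) in that order. The fit took the values below background as read, so their spread enters its SE and these p values. LPS+USP7i and untreated arrays were both below background, so no fold is given for that comparison, although the fit counted it as higher. With normexp background correction the fitted differences were 0.76 and -0.47, and in the deposited table they were 1.80 and -0.80. Both normexp values and the -0.80, which are log2 differences, amount to smaller folds than the bounds, so the bounds hold for the quantile-normalized scale alone. The call between LPS+USP7i and LPS was lost in the deposited table (adjusted p = 0.0794), with a trended variance prior (0.0569), with the untreated arrays or either one left out (0.0638) and without LPS+USP7i replicate 1 (0.0518).

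Ferritin stores iron as a shell of heavy chains (*Fth1*), which oxidize iron, and light chains (*Ftl1*). *Fth1* (A_52_P49601, chr19:10059485-10059544) read 18.39 and 18.26 on the untreated arrays, 18.24 and 18.30 on the LPS arrays, and 18.33 and 18.35 on the LPS+USP7i arrays. The LPS+USP7i arrays lay just above the LPS arrays, by 0.071 (95% interval -0.13 to 0.28, limma adjusted p = 0.672). No spot was marked as saturated. In each group only 0.0108% of probes were brighter than *Fth1*, and quantile normalization gives spots of the same rank the same value on every array. The part of this in the narrow range of *Fth1* was not tested.

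The 2 *Ftl1* probes differed in their calls. The brighter one (A_55_P1968245) read 18.21 and 18.05 on the untreated arrays, 18.05 and 17.99 on the LPS arrays, and 18.26 and 18.21 on the LPS+USP7i arrays. LPS+USP7i minus LPS was 0.22 (limma adjusted p = 0.241), and LPS minus untreated was -0.11 (adjusted p = 0.508). The files place this probe on chr17:6131686-6131745, minus strand, and the other on chr7:52714014-52714495, a span of 482 bases for a 60-base probe. That second probe (A_55_P1983959) read 18.08 and 18.16 on the untreated arrays, 17.50 and 17.65 on the LPS arrays, and 18.13 and 18.33 on the LPS+USP7i arrays. Both LPS arrays lay below the other 4. It was called lower with LPS by 0.55 (SE 0.11, adjusted p = 0.0409) and higher with LPS+USP7i than with LPS by 0.66 (SE 0.11, adjusted p = 0.0445). The first of these calls was kept at 7 and the second at 4 of 14 alternative settings, and both were lost without any one untreated or LPS array. With 75th percentile scaling the difference between LPS and untreated was 0.074, against the median of 0.40 for all genes. Averaging both probes gave -0.33 for LPS against untreated (adjusted p = 0.0391) and 0.44 for LPS+USP7i against LPS (adjusted p = 0.0342). Ferritin light chain has near-identical copies in the mouse genome, and which of them each probe reads was not tested, so the *Ftl1* result is uncertain.

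*Tfrc* encodes transferrin receptor 1, which brings transferrin-bound iron into cells. Its brightest probe (A_52_P228236, chr16:32632255-32632314), printed as 10 spots whose SD was at most 0.088, read 9.96 and 9.24 on the untreated arrays, 9.93 and 9.24 on the LPS arrays, and 10.28 and 9.60 on the LPS+USP7i arrays. Replicate 1 was the higher in each group, and the groups overlapped. LPS+USP7i minus LPS was 0.35 (SE 0.43, 95% interval -0.83 to 1.53, limma adjusted p = 0.725). A_65_P06446 read 8.12 to 8.95 over the 6 arrays, and A_51_P167876, well above background on 4 of the 6 arrays, was not called either.

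*Slc11a1* (NRAMP1) moves iron and manganese out of phagosomes, and *Slc11a2* (DMT1) moves iron out of endosomes. *Slc11a1* (A_51_P186476, chr1:74432161-74432220) read 13.80 and 13.32 on the untreated arrays, 13.18 and 12.84 on the LPS arrays, and 14.14 and 13.74 on the LPS+USP7i arrays. LPS arrays were the lowest, and the untreated and inhibitor arrays overlapped. LPS+USP7i minus LPS was 0.93 (SE 0.26, 95% interval 0.21 to 1.64) and did not pass (limma adjusted p = 0.130). It passed at 3 of 15 alternative settings, over which the adjusted p ran from 0.0278 to 0.347.

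*Slc11a2* had 2 probes. The brighter (A_51_P388737, chr15:100218333-100218392, minus strand) read 10.76 and 10.75 on the untreated arrays, 10.97 and 10.85 on the LPS arrays, and 11.50 and 11.31 on the LPS+USP7i arrays. The 3 groups did not overlap, in the order untreated, LPS, LPS+USP7i. LPS+USP7i exceeded untreated by 0.65 (SE 0.094, limma adjusted p = 0.0258), and exceeded LPS by 0.50, which did not pass (adjusted p = 0.0601). The other probe (A_52_P254298, chr15:100240516-100240575) read 8.34 and 7.96, then 9.27 and 8.80, and 9.90 and 9.57 in the same order. It also differed between LPS+USP7i and untreated, by 1.58 (SE 0.25, adjusted p = 0.0305). The call of the brighter probe was lost in 7 of 15 alternatives (the deposited table, the 2 groups alone, and without either untreated array, either LPS array or LPS+USP7i replicate 1), with adjusted p from 0.0029 to 0.123. That of the other probe was lost at 7 of 14, which were the 2 groups alone and each array left out.

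**Figure D2:**
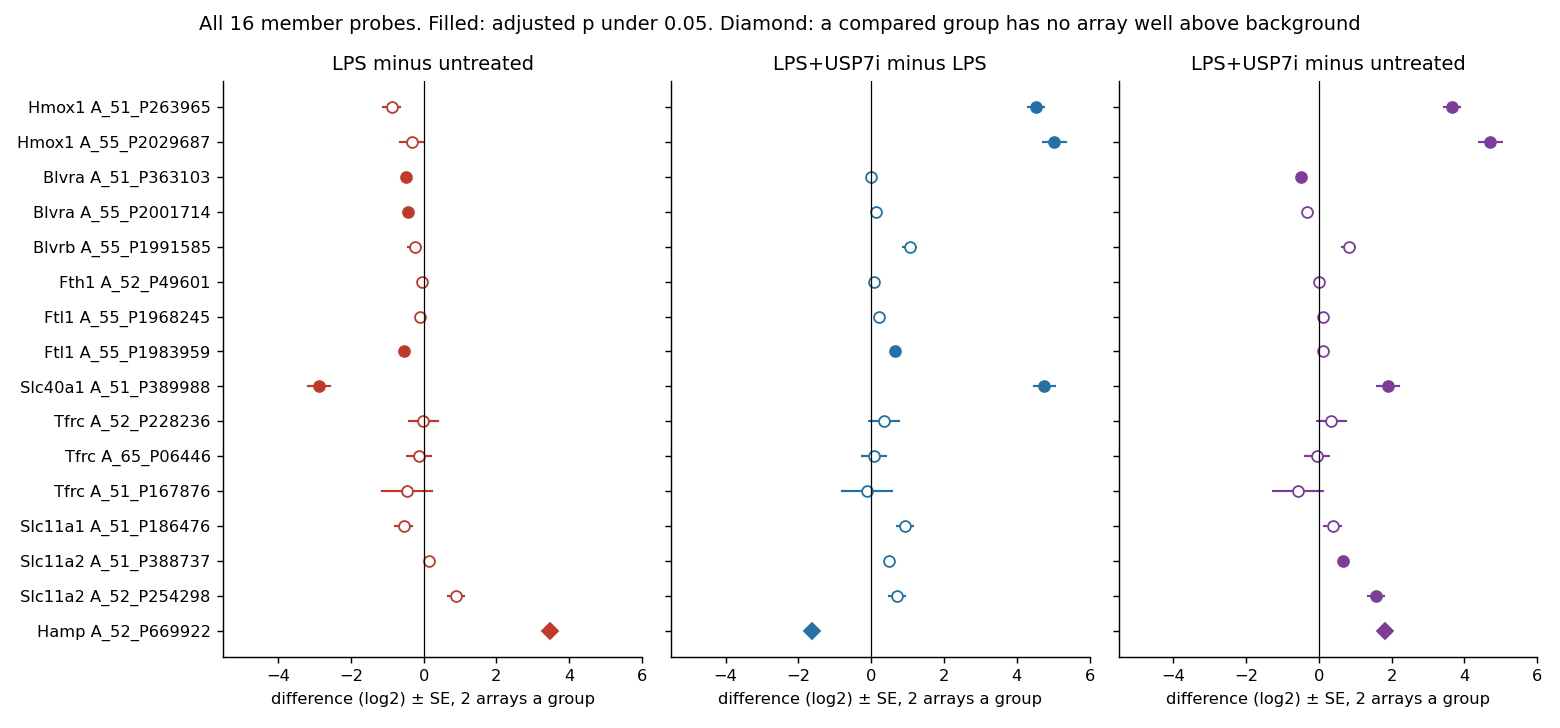
Log2 difference of each of the 16 probes in the 3 comparisons, with bars for the SE of the limma fit on either side. Filled points are probes called at an adjusted p under 0.05. *Hmox1* and *Slc40a1* stand furthest to the right between LPS+USP7i and LPS, at 4.53 to 5.02, and the second *Ftl1* probe is called where the first is not.

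Counted by gene, LPS against untreated gave 1 of the 10 members higher (*Hamp*) and 2 lower (*Blvra*, *Slc40a1*). Over all gene names 7.98% were called higher and 12.8% lower in that comparison. LPS+USP7i against LPS gave 2 higher (*Hmox1*, *Slc40a1*) and 1 lower (*Hamp*), where 5.51% of gene names were called higher and 4.28% lower. LPS+USP7i against untreated gave 4 higher (*Hmox1*, *Slc40a1*, *Slc11a2* and the dim *Hamp*) and 1 lower (*Blvra*), where 6.15% and 8.72% of gene names were called. By probe, the counts of the 16 were 1 higher and 4 lower, 4 higher and 1 lower, and 6 higher and 1 lower in that order of comparisons. The matching shares of all probes were 7.09% and 10.7%, 4.66% and 3.79%, and 5.65% and 7.34%. With so few members, and members chosen with results known, nothing is read from these counts against the shares of all genes.

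The median difference of the 10 members was -0.17 for LPS against untreated, 0.42 for LPS+USP7i against LPS and 0.52 for LPS+USP7i against untreated. Over all gene names the medians were 0.0016, 0.00077 and -0.0021. The difference was above 0 for 2, 9 and 9 of the 10 members in that order, and for 50.7%, 50.2% and 49.4% of all gene names. The last member count includes *Hamp*, which was below background in both groups. The first 2 comparisons share the LPS arrays, so a high LPS value moves them in opposite directions. With 75th percentile scaling, 2 members were called higher and 1 lower between LPS and untreated, where all gene names split into 12184 higher and 4051 lower, against 2779 and 4446 after quantile normalization.

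The other genes of the pathway were taken from 6 lists with 53 genes, of which 50 were found on the array and 10 were above background on no array. *Flvcr1*, *Flvcr2* and *Tfr2* were not matched by name. LPS against untreated gave 8 of the 50 higher and 13 lower, with a median of -0.099, where 7.98% and 12.8% of all gene names were called. LPS+USP7i against LPS gave 5 higher and 4 lower (5.51% and 4.28% of all gene names), with a median of 0.049. LPS+USP7i against untreated gave 8 higher and 7 lower (6.15% and 8.72%), with a median of -0.028. These shares are the background for each list below too. The called genes kept their sign with 75th percentile scaling, normexp correction and the deposited table, but not all stayed called. For LPS the split became 20 higher and 14 lower with 75th percentile scaling, 10 and 18 with normexp, and 8 and 8 in the deposited table, and leaving out one array at a time gave 5 to 8 higher and 4 to 9 lower. The same gave 0 to 2 higher and 0 to 2 lower between LPS+USP7i and LPS, and 4 to 7 higher and 0 to 4 lower between LPS+USP7i and untreated, where at least 8 and 6, and 10 and 11, had an unadjusted p under 0.05.

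Heme synthesis had 12 genes on the array, and 6 were lower and 1 higher with LPS. *Slc25a38*, the carrier that brings glycine into mitochondria for the first step, was lower by 1.30 (SE 0.13, limma adjusted p = 0.0096). *Slc25a37* (mitoferrin-1), which imports iron into mitochondria, was the one that was higher, by 2.30 (SE 0.10, adjusted p = 0.0031). With LPS+USP7i against LPS, *Slc25a38* was higher by 0.88 (adjusted p = 0.0397) and *Slc25a37* lower by 0.71 (adjusted p = 0.0367). *Fech*, the ferrochelatase that inserts iron into the ring, was higher by 0.56 (adjusted p = 0.0296), a call lost with 75th percentile scaling (0.131) and in the deposited table (0.113). The *Slc25a37* call against LPS was lost in the deposited table (0.0613), as were those of *Uros* (0.0828), *Urod* (0.102) and *Cpox* (0.0591) among the 6 lower with LPS. *Urod* also lost its call with 75th percentile scaling (-0.24, adjusted p = 0.313). Against untreated cells, LPS+USP7i gave 1 higher (*Slc25a37*, 1.58) and 3 lower, with *Cpox*, a late enzyme of the pathway, at -1.11. Of these 3, *Uros* lost its call in the deposited table (limma adjusted p = 0.146). At an unadjusted p under 0.05, 7 were lower and 2 higher with LPS. For LPS+USP7i the counts were 3 lower and 2 higher against LPS, and 7 lower and 1 higher against untreated.

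Of 8 heme breakdown and transport genes on the array, 3 were lower and 0 higher with LPS, and 1 was higher and 0 lower with LPS+USP7i against LPS. At an unadjusted p under 0.05 the counts were 5 lower and 1 higher, then 2 higher and 1 lower. The one called higher was *Slc48a1* (HRG1), which carries heme out of the phagolysosome. It read 14.32 and 14.23 on the untreated arrays, 12.90 and 12.91 on the LPS arrays, and 14.83 and 14.77 on the LPS+USP7i arrays. The 3 groups did not overlap, and the order was that of *Slc40a1*. LPS lowered it by 1.37 (SE 0.064, limma adjusted p = 0.0032), and LPS+USP7i exceeded LPS by 1.90 (SE 0.064, adjusted p = 0.0099). *Lrp1*, a receptor for hemopexin-bound heme, and *Abcg2*, a porphyrin and heme exporter, were the others lower with LPS, by 1.17 (adjusted p = 0.0193) and 0.55 (adjusted p = 0.0261, 0.0668 in the deposited table). *Lrp1* was also lower with LPS+USP7i than in untreated cells by 1.37 (adjusted p = 0.0179), one of 2 in the list that were lower there against 1 higher. The other lower gene, *Abcg2*, lost that call in the deposited table (limma adjusted p = 0.0564), as did the higher one, *Slc48a1* (0.0819). At an unadjusted p under 0.05, 4 were lower and 1 higher between LPS+USP7i and untreated.

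Iron uptake and capture had 9 genes on the array, with 3 higher and 1 lower with LPS, 0 higher and 2 lower with LPS+USP7i against LPS, and 2 higher and 0 lower against untreated. At an unadjusted p under 0.05 the counts were 3 higher and 4 lower with LPS. For LPS+USP7i they were 1 higher and 2 lower against LPS, and 2 higher and 2 lower against untreated. *Slc39a14* (ZIP14), a zinc and iron importer, was higher with LPS by 3.21 (SE 0.15, limma adjusted p = 0.0033) and lower with LPS+USP7i than with LPS by 1.10 (adjusted p = 0.0346). It remained above untreated cells by 2.12 (adjusted p = 0.0080). *Lcn2*, which binds the siderophores of bacteria, was higher with LPS by 3.09 (adjusted p = 0.0077) and lower with LPS+USP7i by 2.55 (adjusted p = 0.0237). *Steap3*, the reductase that readies endosomal iron for transport by DMT1, was the one lower with LPS, by 1.24 (adjusted p = 0.0226).

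Of 6 genes of storage, release from storage and export partners, 1 was higher and 1 lower with LPS, and 0 were higher and 1 lower in each of the other 2 comparisons, with the same counts at an unadjusted p under 0.05. *Cp*, encoding ceruloplasmin, a ferroxidase that works with ferroportin, read 7.72 and 6.81 on the untreated arrays, 12.37 and 11.68 on the LPS arrays, and 6.99 and 7.43 on the LPS+USP7i arrays. The LPS arrays were the high ones, and the untreated and inhibitor arrays overlapped. It was higher with LPS by 4.76 (SE 0.43, limma adjusted p = 0.0074) and lower with LPS+USP7i than with LPS by 4.82 (adjusted p = 0.0175), so it ran opposite to *Slc40a1* in both comparisons. *Ncoa4*, the receptor that takes ferritin to the lysosome, was lower with LPS by 1.38 (adjusted p = 0.0076) and lower with LPS+USP7i than in untreated cells by 1.26 (adjusted p = 0.0127).

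Iron sensing and hepcidin control had 10 genes, of which 5 were never above background. With LPS 2 were higher, *Ireb2* by 1.07 (SE 0.11, limma adjusted p = 0.0097) and *Fbxl5* by 1.26 (SE 0.14, adjusted p = 0.0112). *Ireb2* encodes IRP2, which binds iron-responsive elements of ferritin and transferrin receptor messages, and *Fbxl5* encodes the iron sensor that marks IRP2 for degradation. *Hfe*, the hemochromatosis gene, was lower by 0.75 (adjusted p = 0.0319). Against untreated cells LPS+USP7i gave 1.41 for *Ireb2* (adjusted p = 0.0088), 0.76 for *Fbxl5* (adjusted p = 0.0446) and -0.72 for *Hfe* (adjusted p = 0.0429), again 2 higher and 1 lower. In the deposited table the *Hfe* calls were lost for LPS (0.0666) and for LPS+USP7i against untreated (0.0929), as was that of *Fbxl5* in the latter (0.0639). Between LPS+USP7i and LPS limma called 0 of the 10, and 3 had an unadjusted p under 0.05.

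Of 5 transcription factors of heme and iron genes, 1 was higher and 1 lower with LPS, and 2 were higher and 0 lower in the other comparisons. At an unadjusted p under 0.05 the latter counts were 4 higher and 0 lower against LPS, and 5 and 0 against untreated. *Mafg*, a small Maf protein that pairs with NRF2 and BACH1, was lower with LPS by 0.98 (SE 0.069, limma adjusted p = 0.0050). With LPS+USP7i it exceeded LPS by 2.42 (SE 0.069, adjusted p = 0.0099). *Bach1*, a heme-binding repressor of *Hmox1*, was higher with LPS+USP7i than with LPS by 0.88 (adjusted p = 0.0352, 0.0541 with 75th percentile scaling), and *Mafk*, another small Maf, was higher than in untreated cells by 2.63 (adjusted p = 0.0062). With LPS alone *Mafk* was higher by 2.41 (adjusted p = 0.0043). *Nfe2l2*, which encodes NRF2, the activator of *Hmox1*, differed between LPS+USP7i and LPS by 0.71 (SE 0.22, adjusted p = 0.162). *Spic*, a factor of iron-recycling macrophages, read 6.68 and 5.21 on the untreated arrays, 6.70 and 5.36 on the LPS arrays, and 9.41 and 9.05 on the LPS+USP7i arrays. Both inhibitor arrays were the highest, and the difference of 3.20 to LPS did not pass (SE 0.71, adjusted p = 0.083). Of the genes outside the 10 members, *Abcg2*, *Fech*, *Uros*, *Urod*, *Steap3*, *Hamp2*, *Ireb2*, *Fbxl5*, *Hfe*, *Bach1*, *Nfe2l2* and *Spic* were named after their values were seen, as were the values against or with LPS of *Slc25a37*, *Lrp1*, *Mafg* and *Mafk*.

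**Figure D3:**
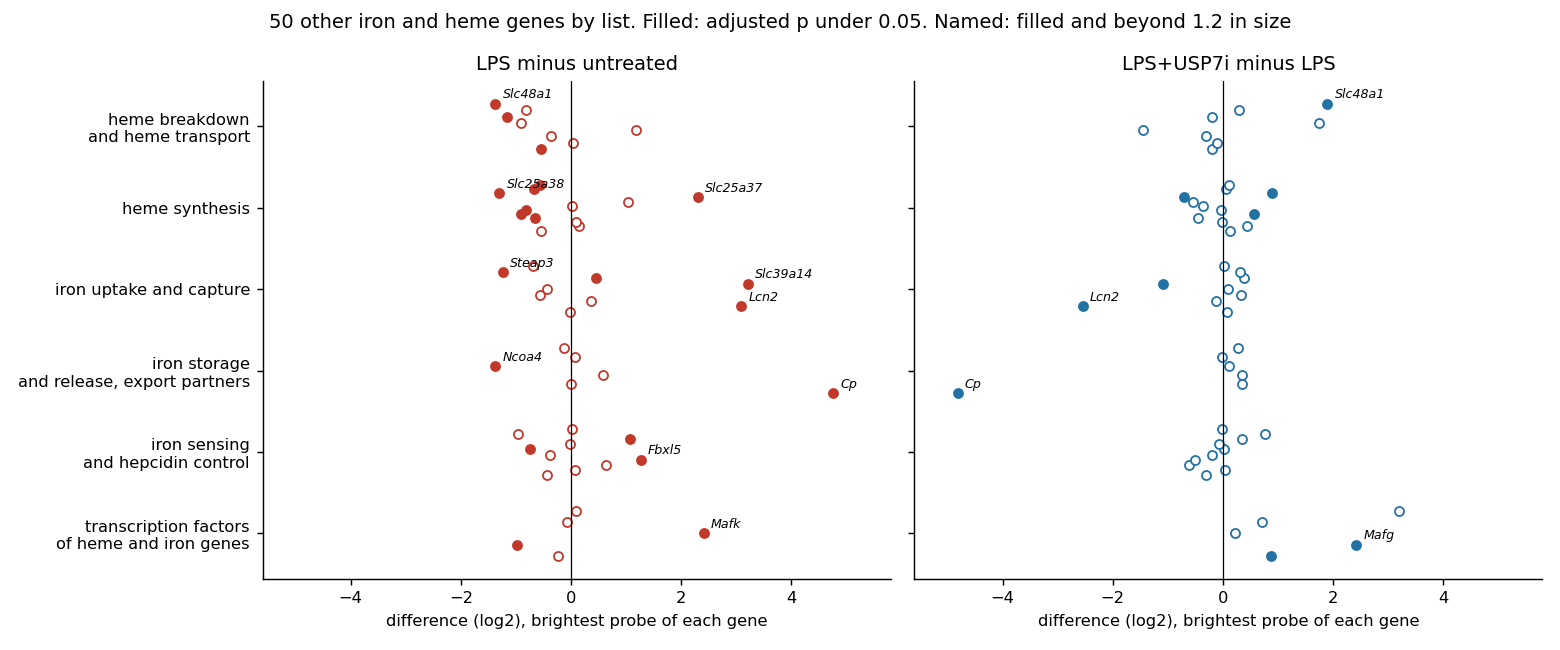
Log2 differences of the 50 other iron and heme genes for LPS minus untreated and for LPS+USP7i minus LPS, grouped by list. Each gene is 1 point (brightest probe), filled where limma's adjusted p was under 0.05. With LPS the heme synthesis genes lie mostly to the left, with 6 lower and 1 higher, and between LPS+USP7i and LPS 9 of the 50 are called.

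The genes whose profile over the 6 arrays was most like that of *Hmox1* were looked for among 10388 gene names that matched RefSeq and were well above background on every array. Likeness was the root mean square (RMS) difference of the log2 values after each profile was centered, and it is a description. The nearest were *Srxn1* (RMS 0.24), encoding sulfiredoxin, and *Gclc* (0.33) and *Gclm* (0.35), which encode the 2 subunits of the enzyme that limits glutathione synthesis. *Srxn1* read 14.13 and 13.66 on the untreated arrays, 13.65 and 13.03 on the LPS arrays, and 17.17 and 17.44 on the LPS+USP7i arrays. Its inhibitor arrays were the highest, as those of *Hmox1* were. For *Slc40a1* the nearest were *Trim16* (RMS 0.35), *Fam13a* (0.39) and *Cpeb2* (0.40). *Trim16*, a tripartite motif protein gene, read 7.94 and 7.89 on the untreated arrays, 5.02 and 5.20 on the LPS arrays, and 9.51 and 9.39 on the LPS+USP7i arrays. As with *Slc40a1*, its LPS arrays were the lowest and its inhibitor arrays the highest.

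**Figure D4:**
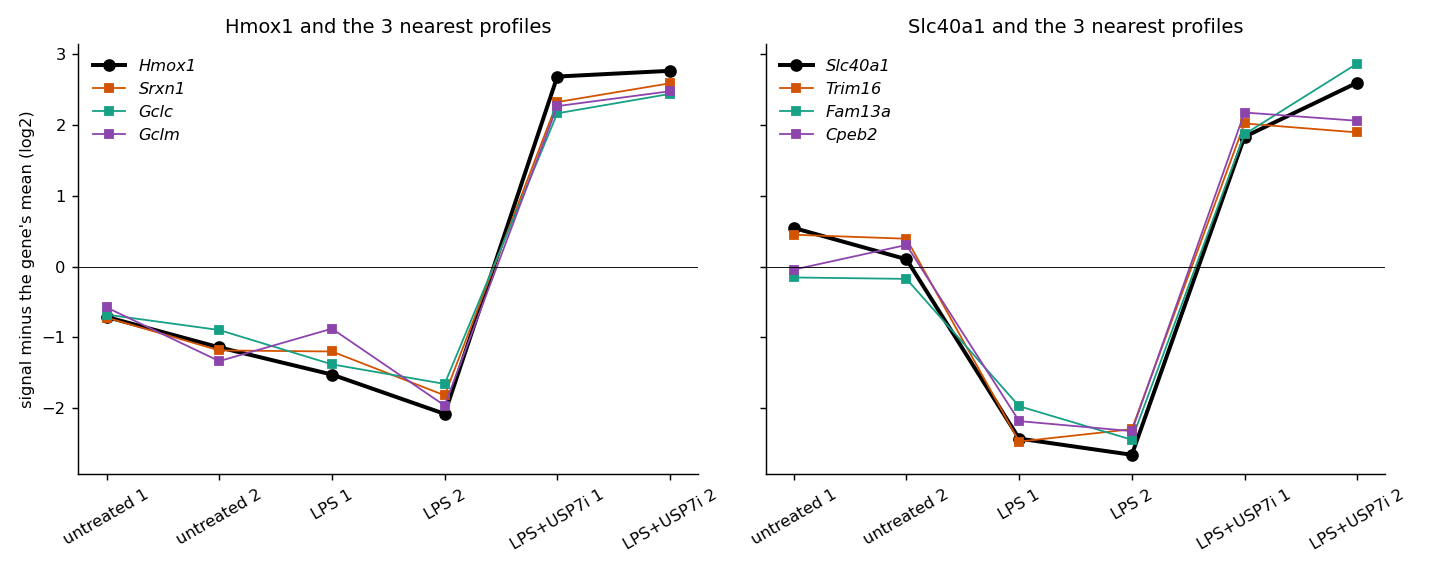
Log2 signal minus the gene's mean over the 6 arrays for *Hmox1* and its 3 nearest genes, and for *Slc40a1* and its 3 nearest genes. Points are single arrays and lines only join the points of a gene, and all 8 profiles are highest on the LPS+USP7i arrays, and those of *Slc40a1* and its neighbors are lowest on the LPS arrays.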

How the data were processed

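RNA (200 ng per sample) was labeled with Cy3 and hybridized to 1-color Agilent mouse arrays. The authors deposited a scanner file for each array, whose spot intensity values Agilent Feature Extraction 10.7.3.1 had background-subtracted (probe positions on build mm9), and a table of log2 values that the authors normalized between arrays with limma quantile normalization. The background correction behind that table is not given in the sources used here. All arrays lay on 1 slide in 1 scan, with one coordinate of slide position tied to the group and the other to the replicate number, so position and group cannot be told apart.

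Here the log2 processed signal was quantile-normalized over spots that were not controls, outlier-flagged spots were left out, and spots of a probe were averaged. limma 3.58.1 in R 4.3.3 fitted 3 group means to all 6 arrays, with Benjamini-Hochberg adjustment over 55680 probes at 0.05. The fit was tested on simulated data, where it recovered most but not all of the changed probes. Group came from the sample titles. Members and lists were chosen with earlier results of these data known. All members were named. Other pathway genes were named when called, above background on both arrays of a compared group and not overlapping, up to 3 per direction and comparison, and 3 genes nearest to *Hmox1* and to *Slc40a1* were named. The alternatives were 75th percentile scaling, normexp (offset 50), the deposited table, dim probes left out, outlier spots kept, a trended prior, 2 groups alone, a replicate block, each array left out, probes averaged, and a log2 difference of at least 1. Promoter sequences were not used here, and 1 cell type marker is not reported here. The number of arrays limits the precision.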

Additional observations from a re-analysis of the deposited data

How the results depend on the processing

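With 75th percentile scaling, 2 members were called higher and 1 lower between LPS and untreated, and 0 lower between LPS+USP7i and untreated (1 at an unadjusted p under 0.05). The deposited table gave 1 lower with LPS, 0 lower between LPS+USP7i and LPS, and 0 lower between LPS+USP7i and untreated, where 1 member each had an unadjusted p under 0.05 in the latter 2. Between LPS+USP7i and LPS, normexp called 5 members higher, leaving out dim probes 5, and a trended prior 4 higher and 0 lower, against 2 and 1. The genes gained were *Blvrb* and *Slc11a2* in all 3 settings and *Slc11a1* with normexp and without dim probes. The deposited table added *Blvrb*, which made 3 higher. With only the 2 groups compared, limma called 0 higher and 0 lower between LPS+USP7i and LPS, although 6 and 1 had an unadjusted p under 0.05, and 2 higher and 0 lower between LPS+USP7i and untreated. Asking for a log2 difference of at least 1 left 1 lower with LPS and 0 lower between LPS+USP7i and untreated.

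Leaving out one array at a time gave 1 to 1 members higher and 0 to 2 lower with LPS, 0 to 2 higher and 0 to 1 lower between LPS+USP7i and LPS, and 1 to 3 higher and 0 to 0 lower between LPS+USP7i and untreated. A group left with 1 array was assumed to vary like the others. Replicate numbers were shared by the groups, and same-numbered arrays deviated together (r = 0.47, 0.42 and 0.40 over 20721 probes), and they shared 1 of the 2 coordinates of their slide position. The samples came from independent experiments, but the labels do not say that a number marks the same experiment in each group, so pairing was not used in the fit. With replicate number as a block, 1 member was higher and 3 lower with LPS, 3 higher and 1 lower between LPS+USP7i and LPS, and 3 higher and 1 lower between LPS+USP7i and untreated. The block ended the call of *Slc40a1* between LPS+USP7i and untreated (adjusted p = 0.0755) and added one for *Slc11a1* between LPS+USP7i and LPS (0.038) and between LPS and untreated (0.0311).

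Counting each gene by its brightest probe, none of the differences that changed sign was called at either setting. The second *Ftl1* probe, called lower with LPS, gave 0.074 with 75th percentile scaling. For LPS against untreated they were *Blvrb* (0.28 with 75th percentile scaling, -0.49 to 0.011 with an array left out), *Fth1* (0.46 with 75th percentile scaling, -0.12 to 0.012 with an array left out), *Ftl1* (0.56 with 75th percentile scaling, 0.033 with normexp, 0.064 in the deposited table) and *Tfrc* (0.031 with 75th percentile scaling, 0.011 with normexp, -0.37 to 0.35 with an array left out). The 75th percentile values sit on a median of all genes of 0.40. For LPS+USP7i against LPS, *Blvra* gave -0.12 with 75th percentile scaling, -0.038 with normexp, -0.076 in the deposited table and -0.031 to 0.033 with an array left out. For LPS+USP7i against untreated, *Fth1* gave -0.0035 in the deposited table and -0.050 to 0.083 with an array left out, and *Tfrc* gave -0.095 with its probes averaged and -0.018 to 0.70 with an array left out. The cause of these changes was not tested. Signal over background limited *Hamp* and the third *Tfrc* probe.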
